A study of Homo sapiens with 12 samples.

Results

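The ADAM, ADAMTS and ADAMTSL genes encode metalloproteases and protease-like matrix proteins that were measured here in irradiated human fibroblasts. Members were the rows of the count table whose symbol was ADAM, ADAMTS, ADAMTSL or ADAMDEC followed by a number, which gave 47 of 57500 rows, namely 23 ADAM, 19 ADAMTS and 5 ADAMTSL genes. ADAMDEC1 was counted with the ADAM genes, and ADAM5 and ADAM6, which the annotation lists as pseudogenes, matched the same pattern. The libraries were bulk RNA sequencing libraries of MRC5, a line of human embryonic lung fibroblasts, in 4 groups of 3. Prol cells were proliferating and received neither radiation nor inhibitor. Sen(IR) cells had become senescent after 20 Gy of X-rays. Sen(IR)+UK5099 cells were irradiated in the same way and given 100 µM UK5099, an inhibitor of the mitochondrial pyruvate carrier. Sen(IR)+CTPI2 cells were irradiated and given CTPI2, an inhibitor of the mitochondrial citrate carrier SLC25A1, for which the methods list 15 and 30 µM without saying which was sequenced. The inhibitors were added 1 day after irradiation and kept for 12 days, and irradiated cells were collected 10 to 12 days after irradiation. All 12 libraries come from 1 cell line. The study's figure legends call the RNA-seq replicates independent experiments or conditions, and the labels do not say what separated them, so the p-values measure the spread between these libraries.

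ADAM proteins are anchored in the cell membrane by a transmembrane segment and carry a disintegrin and a metalloprotease domain. The active ones cut other membrane proteins close to the cell surface, a step called shedding that releases cytokines, growth factors and receptors. ADAMTS proteins lack the membrane anchor, carry thrombospondin repeats, are secreted, and cut proteoglycans, procollagens and other matrix proteins. ADAMTSL proteins resemble the non-catalytic part of an ADAMTS and have no protease domain. Fibroblasts are a main source of these matrix proteases, and senescent fibroblasts are known for secreting proteases together with cytokines.

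Library totals ran from 20597736 to 28245693 counts, so a floor of 3 counts corresponded to 0.111 to 0.147 CPM (counts per 1000000 counts of the library), a limit that covers counting error only. The 9 fibroblast markers examined all exceeded 1 CPM in every library, while the summed epithelial, endothelial and leukocyte markers reached at most 12.9, 6.23 and 6.85 CPM. Prol replicate 2 stood apart from the other Prol libraries, with a mean log2 CPM correlation to the Sen(IR) libraries of 0.947 against 0.940 and 0.941, and results that rest on it are given with and without it.

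Of the 47 members, 32 passed the filter on low counts and were tested: 14 ADAM, 15 ADAMTS and 3 ADAMTSL genes. The other 15 reached at most 10 counts in any library, and ADAM2, ADAM6, ADAM29 and ADAM30 had no count in any library. Among the tested members, 25 lay above the filter level of 0.423 CPM in every library. ADAM8, ADAM11, ADAM21, ADAM22, ADAM28, ADAMTS4 and ADAMTS6 did not. A gene that passes the filter only through the group in which it is high has to differ between groups, so counts over the tested members describe them and support nothing beyond that.

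To compare levels between genes, CPM were divided by the length of the annotated exons in kb. ADAM9 was highest among the ADAM genes at 53.3 ± 4.0, 85.9 ± 5.0, 107 ± 5.7 and 83.9 ± 2.4 CPM per kb (SD, n = 3) in Prol, in Sen(IR), with UK5099 and with CTPI2. It made up 41.7 to 61.1% of the summed ADAM level per kb in each library, followed by ADAM10. ADAMTS1 led the ADAMTS genes at 101 ± 15, 136 ± 3.2, 74.1 ± 4.9 and 138 ± 5.4 CPM per kb in the same order. It made up 55.5 to 61.8% of the summed ADAMTS level per kb in each library, so that sum follows mainly this gene. The second ADAMTS gene was ADAMTS2 or ADAMTS8 in the Prol libraries and ADAMTS19 in all 9 irradiated libraries. ADAMTSL4 led the ADAMTSL genes at 1.68 ± 0.21 CPM per kb in Prol and 7.84 ± 0.33 with UK5099. The summed ADAMTS level was lowest in the UK5099 libraries, at 117 to 129 CPM per kb, against 148 to 204 in Prol. It was highest in Sen(IR), at 240 to 249 CPM per kb, and in CTPI2, at 230 to 244, which overlapped.

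**Figure D1:**
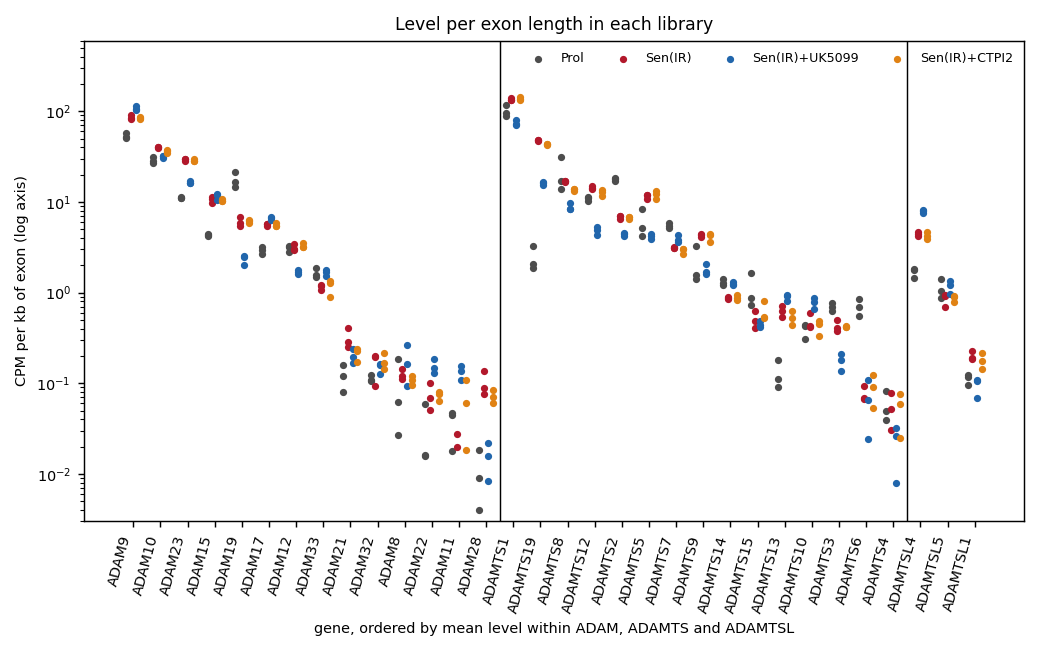
Level of each tested member in each of the 12 libraries, in CPM per kb of exon on a log axis, with genes ordered by their mean level within the ADAM, ADAMTS and ADAMTSL genes. Each point is a library, coloured by group; the Sen(IR) library with no ADAM11 count has no point on the log axis. ADAM9, ADAMTS1 and ADAMTSL4 are the highest of their subfamilies, and the UK5099 points of ADAMTS19 lie between those of Prol and Sen(IR).

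The sequences upstream of 4 members are shown, chosen from the UK5099 results given below, which rest on counts and not on these sequences. ADAMTS19, ADAMTS12 and ADAM19 had the largest decreases with UK5099 among the members with a stretch read from the promoter table, and ADAMTSL4 had the highest level among the members called higher with UK5099. Each is the 250 bases before the RefSeq gene start on GRCh38.p14, written 5′ to 3′ on the strand of the gene, with capitals marking matches on either strand to 3 motifs: AP-1 (TGANTCA, which reads the same on both strands), NF-kB, and the GC box (GGGCGG).
ADAMTS19: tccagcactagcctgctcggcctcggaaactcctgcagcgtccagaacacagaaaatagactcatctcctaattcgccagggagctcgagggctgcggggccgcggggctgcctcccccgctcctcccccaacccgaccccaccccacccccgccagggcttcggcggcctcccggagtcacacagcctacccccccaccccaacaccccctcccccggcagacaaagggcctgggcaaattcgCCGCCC
ADAMTS12: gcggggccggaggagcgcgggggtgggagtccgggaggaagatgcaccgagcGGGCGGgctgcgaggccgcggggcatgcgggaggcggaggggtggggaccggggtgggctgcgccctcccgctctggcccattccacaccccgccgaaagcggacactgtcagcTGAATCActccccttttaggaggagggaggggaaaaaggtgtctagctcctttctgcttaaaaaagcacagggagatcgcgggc
ADAM19: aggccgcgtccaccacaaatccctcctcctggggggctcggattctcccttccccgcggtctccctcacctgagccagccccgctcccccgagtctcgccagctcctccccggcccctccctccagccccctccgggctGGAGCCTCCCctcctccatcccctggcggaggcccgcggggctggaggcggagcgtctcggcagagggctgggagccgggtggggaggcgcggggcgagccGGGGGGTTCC
ADAMTSL4: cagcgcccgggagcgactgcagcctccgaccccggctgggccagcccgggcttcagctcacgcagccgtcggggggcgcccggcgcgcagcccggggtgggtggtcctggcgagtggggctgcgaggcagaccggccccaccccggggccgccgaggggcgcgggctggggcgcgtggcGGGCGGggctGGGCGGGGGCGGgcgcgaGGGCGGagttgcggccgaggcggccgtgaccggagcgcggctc
The ADAMTS19 stretch is chr5:129460048-129460297 (+ strand), ADAMTS12 is chr5:33891991-33892240 (− strand), ADAM19 is chr5:157575776-157576025 (− strand) and ADAMTSL4 is chr1:150549158-150549407 (+ strand). Their GC content was 69.2, 68.4, 76.4 and 83.6% in that order. ADAMTS12 held 1 AP-1 match and 1 GC box, ADAM19 held 2 NF-kB matches and no GC box, ADAMTS19 held 1 GC box, and ADAMTSL4 held 4 GC boxes. Overlapping matches were counted separately.

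Over the 21 tested members with a stretch in the promoter table used, the AP-1 motif was found upstream of 1 (ADAMTS12), the NF-kB motif upstream of 4 (ADAM10, ADAM17, ADAM19 and ADAMTS3) and the GC box upstream of 17. The other tested members, among them ADAM9, ADAM28, ADAMTS1, ADAMTS5, ADAMTS8 and ADAMTS9, were absent from it, so their upstream bases were not examined. Among all 35116 promoters of the same length the shares were 6.57, 9.96 and 42.6%. These shares count single promoters, of genes expressed here or not. The member counts are per gene, with a match in any of its stretches, so the 2 are unlike measures and no excess is drawn from them. Of the 8 members in the table that fell with UK5099, 1 had an AP-1 match, 2 an NF-kB match and 6 a GC box; of the 4 that rose, none had the first or second motif and 4 had a GC box. A match is a run of letters, not a binding site.

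The comparison of Sen(IR) with Prol asks which members changed as the fibroblasts became senescent. A member was called where the adjusted p was under 0.05 and the absolute log2 fold change over 0.5. In Sen(IR) 13 of the 32 tested members rose, where 24.8% of all tested genes did, and 8 fell, where 22.4% did. By subfamily these were 7 higher and 2 lower of 14 ADAM genes, 4 higher and 6 lower of 15 ADAMTS genes, and 2 higher and none lower of 3 ADAMTSL genes. Of the 25 members above the filter in every library, 10 rose and 7 fell. The median log2 fold change over the members was 0.42, beside 0.014 over all tested genes. ADAMTS19, ADAM28 and ADAMTS13 had the largest increases and ADAMTS6, ADAM19 and ADAMTS2 the largest decreases. Without Prol replicate 2 the counts were 15 higher and 9 lower. With upper-quartile scaling, which moved the median of all genes to 0.13, they were 16 higher and 6 lower.

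The comparison of Sen(IR)+UK5099 with Sen(IR) asks which members differed when UK5099, an inhibitor of pyruvate import, was present from 1 day after irradiation. With UK5099, 13 members fell, where 12.1% of all tested genes fell, and 6 rose, where 8.76% rose. The ADAMTS genes moved mostly downward, with 8 lower and 2 higher of 15 and a median log2 fold change of −0.87, beside 0.0099 over all tested genes. The ADAM genes had 4 lower and 3 higher of 14 and a median of 0.0041, and of the 3 ADAMTSL genes 1 fell and 1 rose. Among the 25 members above the filter in every library, 12 fell and 4 rose. The count of decreases was also 13 with RLE and with upper-quartile scaling. Both comparisons use the same Sen(IR) libraries, so their values are given side by side without a test between them.

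The comparison of Sen(IR)+CTPI2 with Sen(IR) asks the same of CTPI2, an inhibitor of citrate export. With edgeR no member was called in either direction, where 0.0185% of all tested genes were called higher and 0.148% lower. At an unadjusted p under 0.05 there were 3 members, ADAM10, ADAM11 and ADAMTS12, and DESeq2 called none at an adjusted p under 0.05. The median over the members was −0.023. For 19 of the 32 members the 95% confidence interval (CI) of the log2 fold change lay wholly within ±0.5, and for the other 13 it was wider than this limit.

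**Figure D2:**
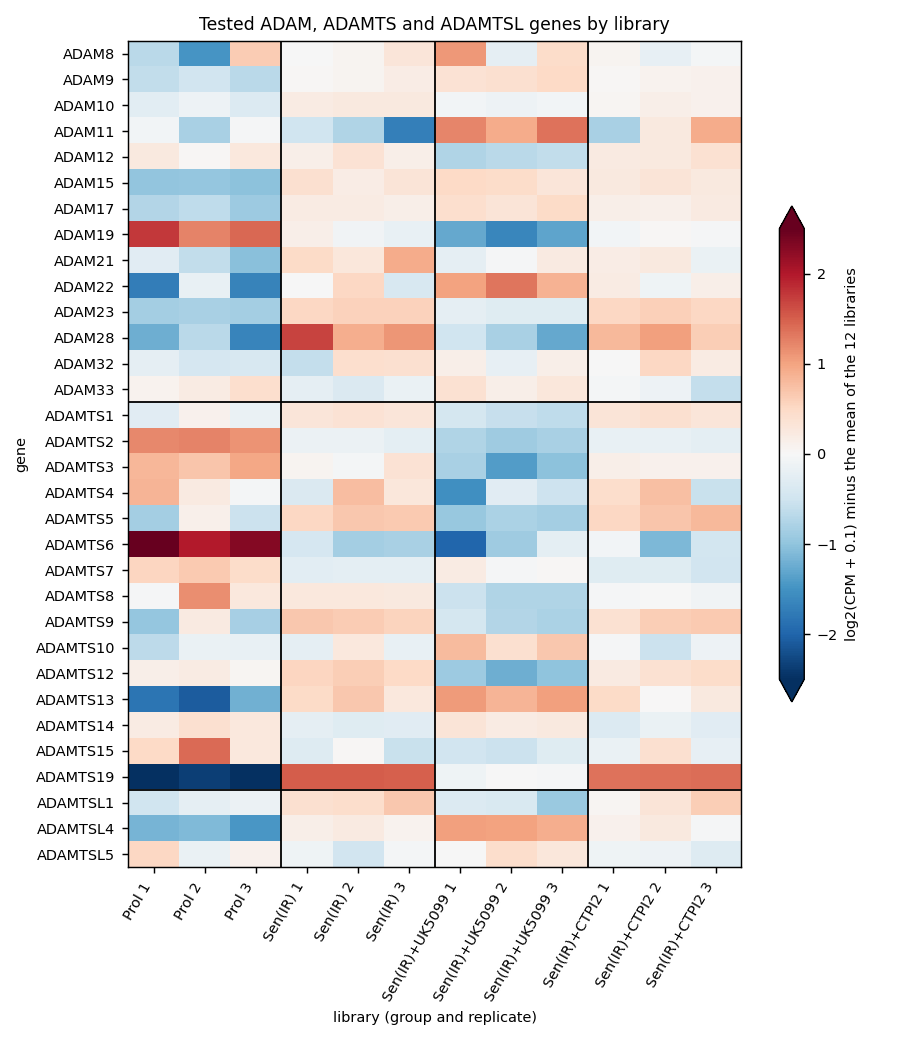
Expression of the 32 tested members in the 12 libraries, as log2(CPM + 0.1) minus the mean of the gene over the 12 libraries; rows are genes, columns are libraries in the order Prol, Sen(IR), UK5099 and CTPI2. In the UK5099 columns ADAMTS1, ADAMTS3, ADAMTS5, ADAMTS9, ADAMTS12 and ADAM19 are blue and ADAM11, ADAM22 and ADAMTSL4 red, and no row was called between the CTPI2 and Sen(IR) columns.

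Among the proteolytic ADAM genes, ADAM10 and ADAM17 encode the best-known sheddases. ADAM17 (chr2:9488486-9556732, − strand), which releases tumour necrosis factor, stood at 47.6, 51.1 and 42.4 CPM in Prol and 91.7, 91.8 and 87.6 in Sen(IR). It stood at 106, 99.7 and 110.0 CPM with UK5099 and 87.4, 87.1 and 92.6 with CTPI2. Prol libraries were lowest and UK5099 libraries highest, and only Sen(IR) and CTPI2 overlapped. In Sen(IR) ADAM17 rose by a log2 fold change of 0.94 ± 0.064 (adjusted p = 1.18e-11), where ± is the standard error. With UK5099 it differed by 0.22 ± 0.062 (adjusted p = 0.00603), under the fold limit. Exons of ADAM17 share 11.7% of their length with other genes, among them IAH1 on the opposite strand, and the strand setting of the counting is not given in the sources used here, so some reads may belong to either gene.

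ADAM10 (chr15:58588809-58749791, − strand), which cuts Notch receptors and cadherins, stood at 447, 497 and 428 CPM in Prol and 623, 642 and 639 in Sen(IR). It stood at 513, 492 and 512 with UK5099 and 556, 593 and 578 with CTPI2. Sen(IR) libraries were the highest and did not overlap those of any other group. The log2 fold changes were 0.47 ± 0.053 (adjusted p = 4.16e-08) in Sen(IR) and −0.33 ± 0.052 (adjusted p = 2.37e-05) with UK5099, both past the adjusted p and under the fold limit. Without Prol replicate 2 the first was 0.54 ± 0.048 and was called.

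ADAM9, a broad sheddase of growth factors and other surface proteins encoded on chromosome 8, stood at 920.2, 1023 and 888 CPM in Prol and 1451, 1489.5 and 1619 in Sen(IR). It stood at 1816, 1862 and 2009 with UK5099 and 1438, 1503 and 1516 with CTPI2. The UK5099 libraries were the highest and the Prol libraries the lowest of the 12. ADAM9 rose in Sen(IR) by 0.69 ± 0.057 (adjusted p = 3.98e-10) and differed with UK5099 by 0.32 ± 0.057 (adjusted p = 8.56e-05), under the fold limit. ADAM15 (chr1:155050566-155062775, + strand), whose disintegrin domain binds integrins, stood at 28.7, 28.9 and 27.9 CPM in Prol and 74.3, 64.5 and 70.5 in Sen(IR). ADAM15 rose in Sen(IR) by 1.29 ± 0.067 (adjusted p = 8.90e-14). Its 79.9, 77.8 and 69.8 CPM with UK5099 overlapped those of Sen(IR).

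ADAM19 and ADAM12, the meltrins, shed growth factors of the neuregulin and EGF families. ADAM19 (chr5:157395534-157575775, − strand) stood at 164, 113 and 129 CPM in Prol and 52.7, 45.0 and 42.2 in Sen(IR). It stood at 19.7, 15.5 and 19.2 with UK5099 and 45.6, 48.8 and 46.9 with CTPI2. The order was Prol, then Sen(IR) and CTPI2 together, then UK5099, with no overlap between these 3 levels. ADAM19 fell in Sen(IR) (log2 fold change −1.53 ± 0.11, adjusted p = 1.45e-11) and fell again with UK5099 (log2 fold change −1.37 ± 0.12, adjusted p = 2.42e-09). ADAM12 (chr10:126012381-126388477, − strand) stood at 31.8, 27.4 and 32.2 CPM in Prol and 29.5, 34.2 and 29.5 in Sen(IR). It stood at 15.9, 16.8 and 17.4 with UK5099 and 31.2, 31.5 and 35.1 with CTPI2. Only the UK5099 libraries of ADAM12 stood apart, with a log2 fold change of −0.89 ± 0.084 (adjusted p = 1.16e-08), and Sen(IR) differed from Prol by 0.027 (95% CI −0.14 to 0.19).

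ADAM28, encoded on chromosome 8 and known from lymphocytes, was near the counting floor. It stood at 0.0853, 0.172 and 0.0372 CPM in Prol and 1.29, 0.711 and 0.834 in Sen(IR). It stood at 0.207, 0.148 and 0.0775 with UK5099 and 0.658, 0.784 and 0.563 with CTPI2. Sen(IR) and CTPI2 libraries overlapped each other and lay above those of Prol and UK5099. ADAM28 rose in Sen(IR) by 3.25 ± 0.53 (adjusted p = 1.07e-05) and fell with UK5099 (log2 fold change −2.68 ± 0.48, adjusted p = 9.23e-05). These rest on 7 counts over the 3 Prol libraries, 61 over Sen(IR) and 11 over UK5099, a ratio of 10.03 (95% counting interval 4.59 to 26.0) for Sen(IR) over Prol and of 0.150 (0.0711 to 0.288) for UK5099 over Sen(IR). Without Prol replicate 2 the first log2 fold change was 3.88 ± 0.66. Only the Sen(IR) and CTPI2 libraries of ADAM28 all lay above the filter level of 0.423 CPM. The gene was thus tested through the groups in which it was high, and its differences describe it and support nothing beyond that. Leukocyte markers also moved: CD14 rose in Sen(IR) by 4.09 and CD68 by 0.85, and the summed level of the 5 markers went from a range of 0.902 to 1.36 CPM in Prol to a range of 5.002 to 5.250 in Sen(IR). MS4A1 and CD3E, which define B and T cells, had no more than 1 count in any library, PTPRC reached at most 0.310 CPM, and the part of leukocyte RNA in the ADAM28 result was not tested.

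Of the other proteolytic members, ADAM21, a testis-expressed ADAM, stood at 0.512, 0.386 and 0.260 CPM in Prol and 0.934, 0.806 and 1.32 in Sen(IR), which did not overlap. ADAM21 rose in Sen(IR) by 1.40 ± 0.38 (adjusted p = 0.00227) and differed with UK5099 by −0.65 (95% CI −1.36 to 0.069), which was not called. ADAM33, an asthma-associated gene of mesenchymal cells, stood at 7.93, 8.501 and 10.001 CPM in Prol, 6.32, 5.74 and 6.57 in Sen(IR) and 9.65, 8.20 and 9.03 with UK5099. Sen(IR) libraries of ADAM33 lay below both other groups, with log2 fold changes of −0.51 ± 0.14 (adjusted p = 0.00276) in Sen(IR) and 0.53 ± 0.14 (adjusted p = 0.00363) with UK5099, just past the fold limit. The Sen(IR) call of ADAM33 was lost with DESeq2 and with RLE scaling (both −0.49), with upper-quartile scaling (−0.39) and without Prol replicate 3 (−0.40) or Sen(IR) replicate 2 (−0.46). Its UK5099 call was lost without Sen(IR) replicate 2 or UK5099 replicate 1, both at 0.47. ADAM8, a leukocyte ADAM, was not called in any comparison.

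Among the ADAM genes without the zinc-binding motif, which act in adhesion and not as proteases, ADAM23 was the most abundant per length. ADAM11, ADAM22 and ADAM23 are known as receptors of LGI proteins in the nervous system. ADAM23 (chr2:206443532-206621127, + strand) stood at 70.2, 72.0 and 70.5 CPM in Prol and 182, 189 and 189 in Sen(IR). It stood at 109, 103 and 103 with UK5099 and 182, 192 and 182 with CTPI2. The UK5099 libraries lay between Prol and Sen(IR) and overlapped neither. ADAM23 rose in Sen(IR) by 1.40 ± 0.050 (adjusted p = 1.31e-16) and fell with UK5099 (log2 fold change −0.83 ± 0.049, adjusted p = 3.99e-12).

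ADAM22 stood at 0.213, 0.816 and 0.223 CPM in Prol and 0.934, 1.37 and 0.687 in Sen(IR), which overlapped through Prol replicate 2. With UK5099 it stood at 1.99, 2.52 and 1.78 CPM, above all other libraries, and with CTPI2 at 1.10, 0.867 and 1.04 CPM. ADAM22 rose in Sen(IR) by 1.28 ± 0.43 (adjusted p = 0.0114) and again with UK5099 by 1.07 ± 0.34 (adjusted p = 0.0125). Without Prol replicate 2 the first log2 fold change was 2.17 ± 0.46, and its call was lost without Prol replicate 1 (0.98), Prol replicate 3 (0.95) or Sen(IR) replicate 2 (0.98). The UK5099 call was lost without Sen(IR) replicate 3 (0.87) or UK5099 replicate 2 (0.91). ADAM11 was lower still, at 0.133, 0.0948 and 0 CPM in Sen(IR) and 0.662, 0.519 and 0.736 with UK5099, which did not overlap. It rose with UK5099 by 2.95 ± 0.68 (adjusted p = 0.00109), on 49 against 5 counts, a ratio of 8.15 with a counting interval of 3.26 to 26.2. Without Sen(IR) replicate 1 the log2 fold change was 3.59. Only the UK5099 libraries of ADAM11 all lay above the filter level of 0.423 CPM. The gene was thus tested through the group in which it was high, and the difference describes it and supports nothing beyond that. ADAM11 also had 0.0877, 0.289 and 0.520 CPM with CTPI2, which overlapped both other irradiated groups. ADAM32, a sperm-associated ADAM, was not called in any comparison.

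**Figure D3:**
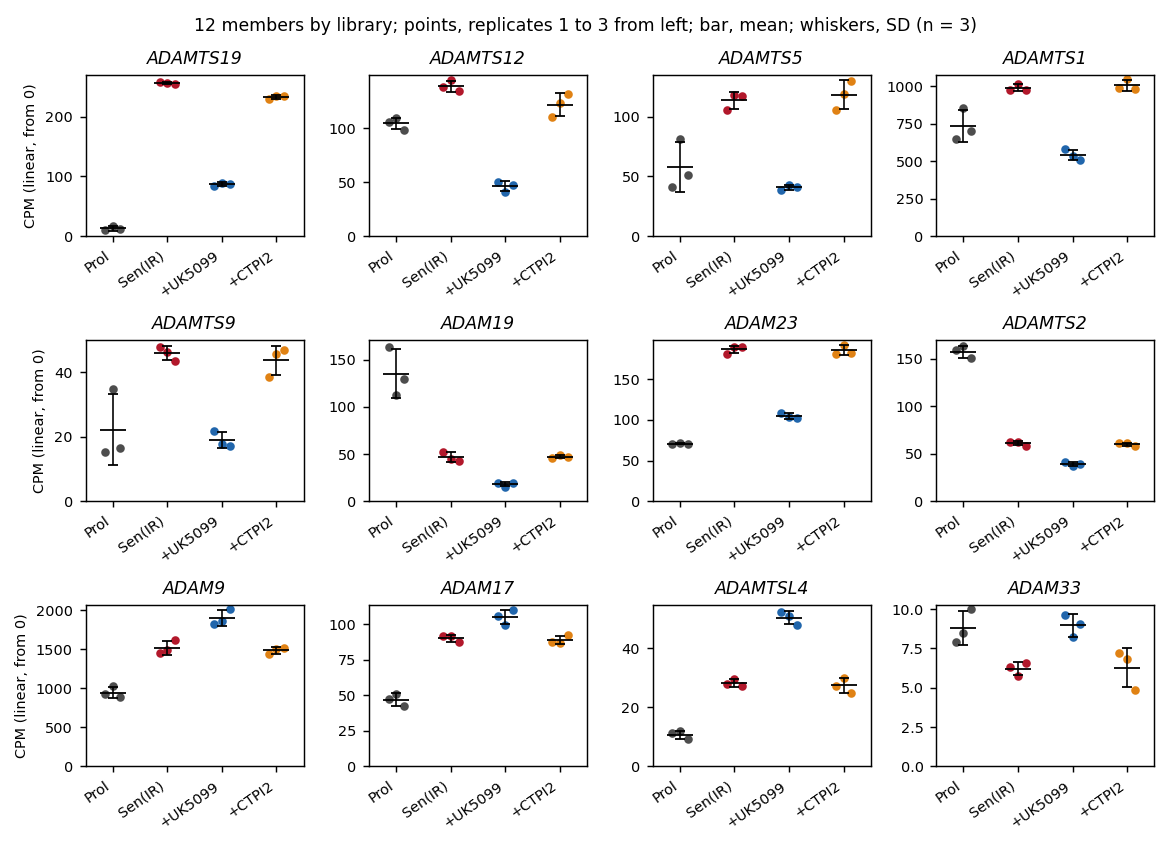
Level of 12 members in CPM on linear axes that start at 0, with each library as a point, the group mean as a bar and the SD of 3 libraries as whiskers. The first 8 panels hold genes whose UK5099 libraries lie below their Sen(IR) libraries, and the last 4 hold genes whose UK5099 libraries lie above them.

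Of the 6 tested ADAMTS genes whose products cut aggrecan, versican and related proteoglycans, 2 rose and 1 fell in Sen(IR), near the shares of all tested genes called (24.8% higher and 22.4% lower). With UK5099 4 fell and none rose, beside 12.1% lower and 8.76% higher of all tested genes. ADAMTS1 (chr21:26835755-26845409, − strand), which cuts versican and aggrecan, stood at 648, 856 and 705 CPM in Prol and 978, 1018 and 976 in Sen(IR). It stood at 581, 532 and 510.4 with UK5099 and 987, 1052 and 980.5 with CTPI2. UK5099 libraries lay below every other library, and only Sen(IR) and CTPI2 overlapped. ADAMTS1 fell with UK5099 (log2 fold change −0.87 ± 0.073, adjusted p = 1.52e-09). Sen(IR) differed from Prol by 0.43 ± 0.072 (adjusted p = 1.73e-05), under the fold limit, and by 0.55 ± 0.056 without Prol replicate 2, past it.

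ADAMTS5 (chr21:26917922-26967088, − strand), a main aggrecanase of cartilage, lies 72.5 kb from ADAMTS1 on the same strand. It stood at 40.8, 81.3 and 50.7 CPM in Prol and 106, 118 and 117 in Sen(IR). It stood at 38.5, 42.8 and 41.0 with UK5099 and 106, 119 and 130.1 with CTPI2. The UK5099 libraries lay around Prol replicate 1 and below the other Prol libraries, while Sen(IR) and CTPI2 overlapped at the highest level. ADAMTS5 rose in Sen(IR) by 0.98 ± 0.14 (adjusted p = 2.53e-06), or by 1.31 ± 0.087 without Prol replicate 2, and fell with UK5099 (log2 fold change −1.48 ± 0.15, adjusted p = 2.57e-08). ADAMTS4, the other classical aggrecanase, stayed near the floor at 0.853, 0.515 and 0.409 CPM in Prol and 0.311, 0.806 and 0.539 in Sen(IR), with 0.0828, 0.334 and 0.271 with UK5099 and 0.614, 0.784 and 0.260 with CTPI2. The groups overlapped, and its UK5099 difference of −1.22 ± 0.55 (adjusted p = 0.0790) was not called, although it was without Sen(IR) replicate 1 (−1.51, adjusted p = 0.0440).

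ADAMTS9 (chr3:64515654-64688000, − strand), which cuts versican, stood at 15.1, 34.7 and 16.6 CPM in Prol and 47.6, 46.4 and 43.4 in Sen(IR). It stood at 21.9, 17.8 and 17.2 with UK5099 and 38.6, 45.6 and 46.9 with CTPI2. Sen(IR) libraries lay above all Prol and UK5099 libraries, and Prol replicate 2 was the highest of its group. ADAMTS9 rose in Sen(IR) by 1.05 ± 0.18 (adjusted p = 2.68e-05), or by 1.53 ± 0.10 without Prol replicate 2, and fell with UK5099 (log2 fold change −1.28 ± 0.19, adjusted p = 6.94e-06).

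ADAMTS8 and ADAMTS15 lie back to back on chromosome 11, 20.04 kb apart on opposite strands. ADAMTS8 (chr11:130404923-130428609, − strand) stood at 57.2, 130.3 and 70.2 CPM in Prol and 70.0, 70.1 and 69.2 in Sen(IR). It stood at 39.9, 34.6 and 34.7 with UK5099 and 56.9, 58.0 and 54.9 with CTPI2. Prol replicate 2 was by far the highest library and UK5099 libraries were the lowest. ADAMTS8 fell with UK5099 (log2 fold change −0.94 ± 0.18, adjusted p = 0.000152), and the Sen(IR) difference of −0.30 was not called and turned to 0.13 ± 0.075 without Prol replicate 2. ADAMTS15 (chr11:130448645-130476645, + strand) stood at 5.25, 9.96 and 4.42 CPM in Prol and 2.94, 3.74 and 2.45 in Sen(IR), which did not overlap. It fell in Sen(IR) (log2 fold change −1.09 ± 0.25, adjusted p = 0.000539), or −0.66 ± 0.21 without Prol replicate 2, and with UK5099 its difference of −0.19 (95% CI −0.76 to 0.39) was not called.

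ADAMTS2, ADAMTS3 and ADAMTS14 encode the procollagen N-propeptidases, which remove the amino-terminal propeptide of fibrillar procollagens, and all 3 fell in Sen(IR). ADAMTS2 (chr5:179110853-179345461, − strand) stood at 159, 163 and 151 CPM in Prol and 62.4, 62.3 and 58.5 in Sen(IR). It stood at 40.8, 37.4 and 39.4 with UK5099 and 60.9, 60.9 and 58.3 with CTPI2. Prol, Sen(IR) and UK5099 libraries formed 3 separate levels in falling order. The log2 fold changes of ADAMTS2 were −1.37 ± 0.055 (adjusted p = 1.03e-15) in Sen(IR) and −0.64 ± 0.057 (adjusted p = 5.35e-09) with UK5099. ADAMTS3 stood at 4.86, 4.42 and 5.35 CPM in Prol, 2.85, 2.61 and 3.48 in Sen(IR) and 1.49, 0.964 and 1.28 with UK5099, again 3 separate levels, and its 2.98, 2.93 and 2.90 CPM with CTPI2 lay within the range of Sen(IR). It fell in Sen(IR) (log2 fold change −0.72 ± 0.17, adjusted p = 0.000817) and with UK5099 (log2 fold change −1.26 ± 0.20, adjusted p = 2.62e-05). ADAMTS14 went the other way with UK5099, at 6.74, 7.77 and 7.06 CPM in Prol, 4.98, 4.74 and 4.81 in Sen(IR) and 7.33, 6.75 and 6.98 with UK5099. It fell in Sen(IR) (log2 fold change −0.57 ± 0.12, adjusted p = 0.000261), a call lost with upper-quartile scaling (−0.45), and rose with UK5099 by 0.53 ± 0.12 (adjusted p = 0.000999).

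ADAMTS7 and ADAMTS12 both cut cartilage oligomeric matrix protein (COMP), and they moved apart. ADAMTS12 (chr5:33523535-33892019, − strand), whose upstream bases held the AP-1 match, stood at 106, 109 and 98.7 CPM in Prol and 138, 145 and 135 in Sen(IR). It stood at 50.5, 41.0 and 47.4 with UK5099 and 110.5, 124 and 131 with CTPI2. The 4 groups of libraries did not overlap, in the order UK5099, Prol, CTPI2 and Sen(IR) from lowest to highest. ADAMTS12 fell with UK5099 (log2 fold change −1.59 ± 0.073, adjusted p = 5.56e-14), a 3.01-fold decrease, and differed in Sen(IR) by 0.41 ± 0.070 (adjusted p = 1.87e-05), under the fold limit. ADAMTS7 stood at 42.3, 45.8 and 39.7 CPM in Prol, 24.2, 24.5 and 24.3 in Sen(IR) and 33.3, 28.3 and 29.8 with UK5099. It fell in Sen(IR) (log2 fold change −0.81 ± 0.077, adjusted p = 3.64e-09) and differed with UK5099 by 0.32 ± 0.078 (adjusted p = 0.00176), under the fold limit.

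ADAMTS19 (chr5:129460281-129738683, + strand), which has no widely established substrate, had the largest increase of any member in Sen(IR). It stood at 9.98, 17.4 and 11.004 CPM in Prol and 258, 258 and 255 in Sen(IR). It stood at 83.9, 89.5 and 87.9 with UK5099 and 229, 235 and 236 with CTPI2. The 4 groups formed separate levels, in the order Prol, UK5099, CTPI2 and Sen(IR) from lowest to highest. ADAMTS19 rose in Sen(IR) by 4.33 ± 0.11 (adjusted p = 4.55e-19), a 20.2-fold increase, and fell with UK5099 (log2 fold change −1.56 ± 0.092, adjusted p = 4.63e-12). Its exons share 5.27% of their length with antisense genes, so some of its reads may be theirs.

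ADAMTS13, the protease of von Willebrand factor, stood at 0.640, 0.515 and 1.04 CPM in Prol and 3.56, 4.08 and 3.04 in Sen(IR). It stood at 5.34, 4.599 and 5.19 with UK5099 and 3.55, 2.52 and 2.99 with CTPI2. Prol libraries were the lowest and UK5099 libraries the highest. ADAMTS13 rose in Sen(IR) by 2.25 ± 0.24 (adjusted p = 2.42e-08), and its UK5099 difference of 0.50 ± 0.18 (adjusted p = 0.0288) fell just short of the fold limit. ADAMTS6 and ADAMTS10 are paralogs linked to fibrillin microfibrils. ADAMTS6 stood at 7.21, 4.72 and 5.87 CPM in Prol and 0.801, 0.569 and 0.588 in Sen(IR), and at 0.207, 0.556 and 0.930 with UK5099 and 1.05, 0.454 and 0.779 with CTPI2. Every irradiated library of ADAMTS6 lay below every Prol library, with a log2 fold change of −3.17 ± 0.31 (adjusted p = 6.53e-09) in Sen(IR) and no call with either inhibitor. ADAMTS10 was not called in Sen(IR), at 2.40, 3.41 and 2.45 CPM, and with 4.97, 3.75 and 4.53 CPM it rose with UK5099 by 0.68 ± 0.20 (adjusted p = 0.00711).

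ADAMTSL4 (chr1:150549369-150560937, + strand), which binds fibrillin and is mutated in ectopia lentis, stood at 11.3, 11.8 and 9.26 CPM in Prol and 28.1, 29.7 and 27.1 in Sen(IR). It stood at 52.3, 51.0 and 48.1 with UK5099 and 27.3, 30.1 and 25.0 with CTPI2. Libraries rose from Prol to Sen(IR) and again to UK5099 without overlap. ADAMTSL4 rose in Sen(IR) by 1.40 ± 0.092 (adjusted p = 6.58e-12) and with UK5099 by 0.83 ± 0.081 (adjusted p = 1.86e-08). Its exons share 14.4% of their length with opposite-strand genes, among them MCL1, so some of its reads may be theirs.

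ADAMTSL1, called punctin, stood at 1.28, 1.59 and 1.67 CPM in Prol, 2.49, 2.56 and 3.04 in Sen(IR) and 1.45, 1.41 and 0.930 with UK5099, with 1.93, 2.35 and 2.901 with CTPI2. Sen(IR) libraries were higher than those of Prol and UK5099 and overlapped those of CTPI2, with log2 fold changes of 0.83 ± 0.23 (adjusted p = 0.00301) in Sen(IR) and −1.09 ± 0.23 (adjusted p = 0.000582) with UK5099. ADAMTSL5 stood at 5.08, 3.13 and 3.79 CPM in Prol and 3.29, 2.51 and 3.43 in Sen(IR), which overlapped. Its Sen(IR) difference of −0.38 ± 0.19 (adjusted p = 0.0897) was not called, but without Prol replicate 2 it was, at −0.52 ± 0.20 (adjusted p = 0.0225).

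**Figure D4:**
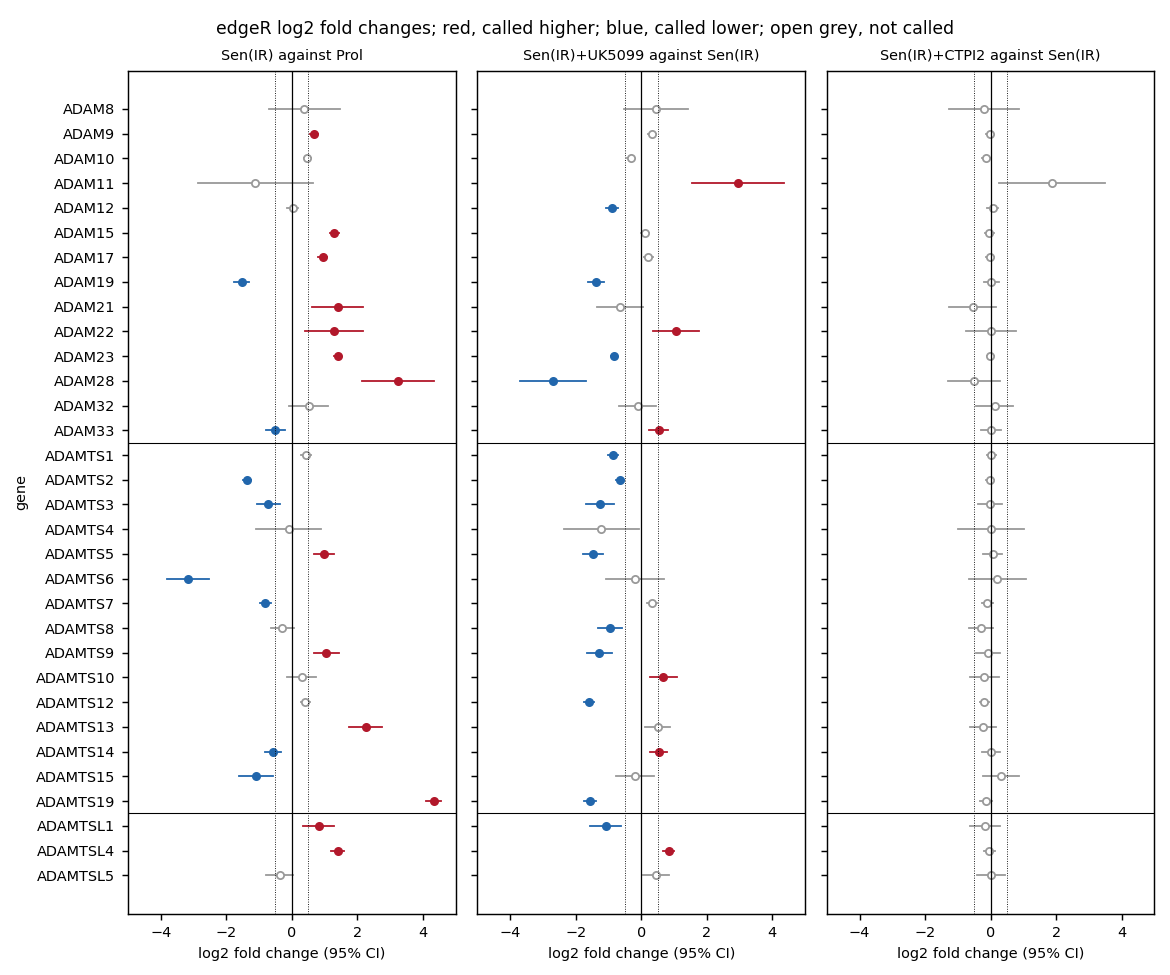
The edgeR log2 fold change of each tested member with its 95% CI in 3 comparisons; filled red points were called higher, filled blue points called lower and open grey points not called, and dotted lines mark the fold limit of ±0.5. ADAMTS19 lies at 4.33 in Sen(IR) against Prol and at −1.56 with UK5099, and no point is filled in the CTPI2 panel.

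With CTPI2 no member was called, and the differences of those that moved with UK5099 were known with unequal precision. ADAM11 and ADAM28, which had the largest changes with UK5099 and few counts, differed from Sen(IR) by a log2 fold change of 1.87 (95% CI 0.26 to 3.48; adjusted p = 0.582 in edgeR) and −0.50 (95% CI −1.29 to 0.29). The intervals were narrower for members at higher levels, with a log2 fold change of 0.024 (95% CI −0.13 to 0.17) for ADAMTS1, −0.0088 (95% CI −0.11 to 0.091) for ADAM23 and 0.014 (95% CI −0.21 to 0.24) for ADAM19. It was −0.14 (95% CI −0.32 to 0.046) for ADAMTS19 and −0.19 (95% CI −0.34 to −0.046) for ADAMTS12. The CTPI2 libraries of both lay below those of Sen(IR), as did those of ADAM10, ADAM21, ADAMTS7 and ADAMTS8. The share of all tested genes without overlap was not computed, so nothing is drawn from this. Setting UK5099 directly against CTPI2, which differ in target and concentration, 13 members were lower with UK5099, where 11.7% of all tested genes were, and 6 were higher, where 8.20% were. The log2 difference between the inhibitors was −1.54 ± 0.15 (adjusted p = 1.46e-08) for ADAMTS5, −1.38 ± 0.12 (adjusted p = 2.19e-09) for ADAM19 and 0.88 ± 0.080 (adjusted p = 8.49e-09) for ADAMTSL4.

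Regulators of these proteases and related genes were examined as lists, whose counts stand beside the shares of all tested genes called, which were 24.8% higher and 22.4% lower in Sen(IR) and 8.76% higher and 12.1% lower with UK5099. With CTPI2 no gene of these lists was called, where 0.0185% of all tested genes were called higher and 0.148% lower. Of 7 inhibitors, 3 rose and none fell in Sen(IR) (median log2 fold change 0.46), and with UK5099 none rose and 2 fell (median 0.029). TIMP1, an inhibitor of many metalloproteases, rose in Sen(IR) by 2.01 ± 0.060 (adjusted p = 5.40e-18). TIMP3, the tissue inhibitor that acts on ADAM17 and the aggrecanases, stood at 401, 414 and 404 CPM in Prol and 569, 552 and 560.2 in Sen(IR). It stood at 156, 149 and 147 with UK5099 and 438, 434 and 444 with CTPI2. UK5099 libraries lay below all others, a change of −1.90 ± 0.046 (adjusted p = 5.22e-19). The CTPI2 libraries of TIMP3 also lay below those of Sen(IR), with a log2 fold change of −0.35, under the fold limit. With CTPI2, 1 of the 7 inhibitors passed the adjusted p, and 5 log2 fold changes were negative and 2 positive. RECK, a membrane-anchored inhibitor, rose in Sen(IR) by 1.20, and A2M, a broad protease trap, fell with UK5099 (log2 fold change −0.55).

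Of the 3 partners of ADAM17, the iRhoms RHBDF1 and RHBDF2, which carry it to the cell surface, rose in Sen(IR) by 0.65 and 2.53. RHBDF2 stood at 2.303, 1.97 and 2.31 CPM in Prol and 12.8, 13.3 and 12.2 in Sen(IR). It stood at 3.77, 3.49 and 3.33 with UK5099, which lay between the groups, and fell there (log2 fold change −1.85 ± 0.12, adjusted p = 1.06e-11). Of the 6 tetraspanins that guide ADAM10, 2 rose and 1 fell in Sen(IR), and none was called with UK5099 in either direction (1 at an unadjusted p under 0.05). Of the 4 proprotein convertases, which remove the inhibitory prodomain, FURIN, PCSK5 and PCSK6 rose in Sen(IR) by 0.86, 1.13 and 2.53. PCSK6 stood at 0.128, 0.258 and 0.223 CPM in Prol, all below the filter level of 0.423 CPM, and at 1.20, 1.28 and 1.13 in Sen(IR). PCSK6 was thus tested through the irradiated groups, in which it was high, and its rise describes it and supports nothing beyond that. PCSK5 and PCSK7 fell with UK5099 (log2 fold changes −0.74 and −0.63). Of the 2 enzymes that add sugars to thrombospondin repeats, POFUT2 rose in Sen(IR) by 1.04 and B3GLCT fell (log2 fold change −0.97), and neither was called with UK5099.

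Proteins that ADAM sheddases cut formed 2 lists, read beside the same shares (24.8 and 22.4% in Sen(IR), 8.76 and 12.1% with UK5099). Of 5 ligands of the EGF receptor, 2 rose and 1 fell in Sen(IR) and 1 rose and 3 fell with UK5099 (medians 0.77 and −0.70). Amphiregulin (AREG), an ADAM17 substrate, stood at 14.4, 23.7 and 15.5 CPM in Prol, 10.9, 9.53 and 9.51 in Sen(IR) and 2.77, 2.67 and 1.78 with UK5099. It fell in Sen(IR) (log2 fold change −0.83 ± 0.15, adjusted p = 4.89e-05) and with UK5099 (log2 fold change −2.05 ± 0.19, adjusted p = 1.15e-08), and HBEGF fell with UK5099 (log2 fold change −1.17). Of 20 other shed proteins, 13 rose and 4 fell in Sen(IR) and none rose and 7 fell with UK5099 (medians 0.69 and −0.32). VCAM1, a leukocyte adhesion molecule, stood at 16.1, 31.3 and 18.1 CPM in Prol, 829, 874 and 832 in Sen(IR) and 44.7, 36.8 and 34.6 with UK5099, and fell with UK5099 (log2 fold change −4.45 ± 0.14, adjusted p = 6.11e-17). With CTPI2 it stood at 617, 617 and 633 CPM and was not called. Of the 20 other shed proteins, 13 had a negative and 7 a positive log2 fold change with CTPI2. ICAM1 and the chemokine CX3CL1 fell with UK5099 (log2 fold changes −4.15 and −4.01). CX3CL1 was near the counting floor, at 1.87, 0.948 and 1.81 CPM in Sen(IR) and 0.0828, 0.0371 and 0.155 with UK5099. All Prol and UK5099 libraries of CX3CL1 lay below the filter level of 0.423 CPM. It was thus tested through the groups in which it was high, and its fall describes it and supports nothing beyond that.

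Of 10 matrix genes whose products ADAMTS proteins cut, 3 rose and 1 fell in Sen(IR), and none rose and 6 fell with UK5099 (medians −0.063 and −0.99). All tested genes were called higher and lower in 24.8 and 22.4% in Sen(IR) and in 8.76 and 12.1% with UK5099. COL1A1, the main chain of collagen I, stood at 6456, 7213 and 6329 CPM in Prol, 4681, 4820.2 and 4642 in Sen(IR) and 1719, 1580.3 and 1504 with UK5099. COL3A1, COL1A1 and COL5A1 fell with UK5099 (log2 fold changes −1.75, −1.56 and −1.08). Of 11 genes of fibrillin microfibrils, 3 rose and 4 fell in Sen(IR), and 1 rose and 4 fell with UK5099 (medians −0.0071 and −0.47). Elastin (ELN) stood at 45.9, 31.5 and 42.3 CPM in Prol and 0.267, 0.237 and 0.147 in Sen(IR), and LOX, the enzyme that cross-links elastin and collagen, fell with UK5099 (log2 fold change −1.52 ± 0.050, adjusted p = 1.45e-16). These lists overlap the 9 fibroblast markers, whose summed level was 15255 to 16343 CPM with UK5099 against 25470 to 26615 in Sen(IR). Of the markers 4 were called lower with UK5099, namely COL1A1, COL1A2, COL3A1 and THY1, and none higher. The log2 fold changes of the fibroblast markers DCN, LUM and PDGFRB were −0.0011 (95% CI −0.19 to 0.19), 0.055 (95% CI −0.13 to 0.24) and 0.049 (95% CI −0.078 to 0.18). FN1 went from a mean of 5840 CPM in Sen(IR) to 4944 with UK5099, and VIM from 3063 to 2780. Over the 9 markers the median was −0.24, with 7 negative and 2 positive. Of these 9, 2 passed the adjusted p but stayed under the fold limit. In bulk RNA fewer cells of a kind and less RNA per cell cannot be told apart, and the part of the lower collagen and THY1 counts in the ADAMTS decreases was not tested.

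**Figure D5:**
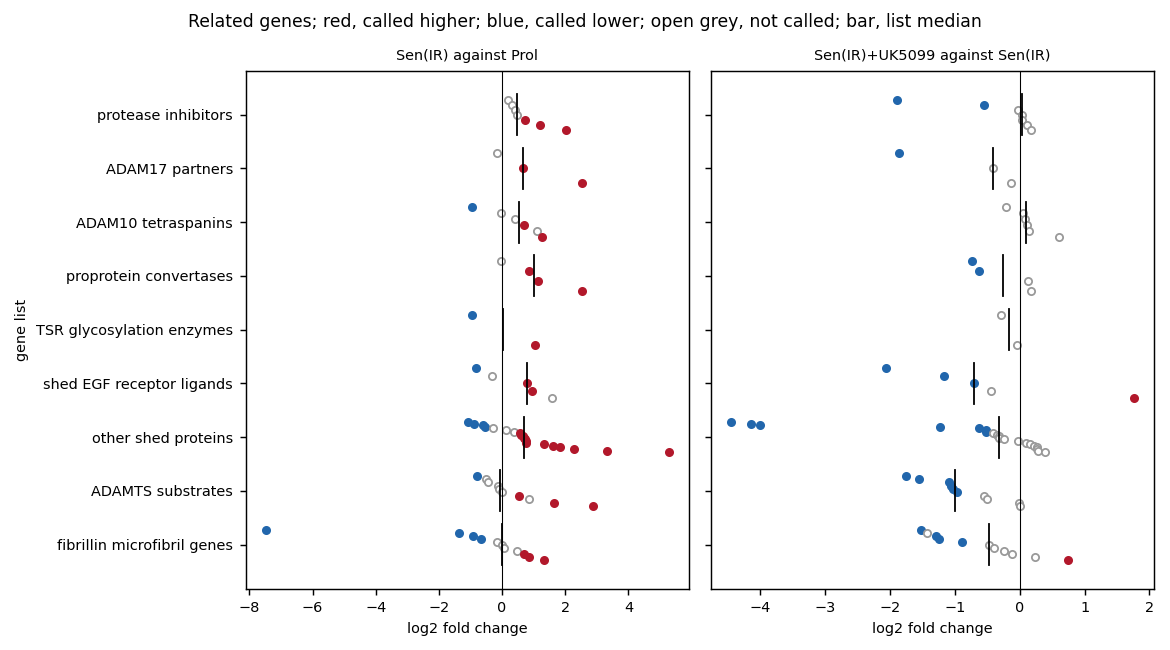
The log2 fold change of each related gene after irradiation (against Prol) and with UK5099 (against Sen(IR)), drawn as 1 row per list, a bar at the list median, and filled red or blue points for genes called higher or lower. The ADAMTS substrates have a median of −0.063 in the first panel and −0.99 in the second.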

How the data were processed

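Bulk RNA was sequenced from 12 MRC5 libraries in 4 groups of 3. According to the methods, the authors used Trimmomatic 0.36 for trimming, STAR 2.5.2b for alignment against GRCh38, and counted unique exon reads per gene identifier with featureCounts (Subread 1.5.2). The annotation version and strand setting are not given in the sources used here. The deposited values are raw counts, and the authors did not normalize them. The file held 0 columns of other samples.

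The tests used edgeR 4.0.16 (R 4.3.3): its filterByExpr with a minimum count of 10, TMM scaling, and the quasi-likelihood test in 1 fit of all 12 libraries, with Benjamini-Hochberg adjustment over the 16251 genes tested, which held 99.9% of the counts. Genes were called at an adjusted p under 0.05 and an absolute log2 fold change over 0.5. CPM use TMM-scaled library sizes. Exon lengths, positions and overlaps came from GENCODE v44 on GRCh38. The common dispersion was 0.00374, a coefficient of variation of 6.12%. Replicate libraries differed by more than sampling noise (chi-square per gene 2.24 to 12.4), so none was counted as a duplicate. Counting intervals for ratios of summed counts were exact and cover counting error only. Tested on counts simulated for the UK5099 comparison over 15843 genes, edgeR recovered 100 of 100 genes changed 2-fold and 100 of 100 changed 4-fold with 7 false calls, and DESeq2 1.42.0 recovered 96 and 100 with 1 false call. The changed genes were drawn only from genes with mean counts well above the floor, and all genes were given the same dispersion. The recovery therefore does not extend to members with few counts, such as ADAM11, ADAM28 and ADAMTS4.

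Values of each library in the groups compared were given for up to 12 called members per comparison by size of change, for the highest-level member of each subfamily, and for ADAM10, ADAM17, ADAMTS1, ADAMTS4 and ADAMTS5. ADAM33, ADAMTS7, ADAMTS10, ADAMTS14 and ADAMTSL5 were added after their values were seen, to complete their role groups, with values for some groups only. The members and the related gene lists were chosen with earlier results of these data known. Alternatives were DESeq2, RLE and upper-quartile scaling, no filter, only the compared groups, a replicate block, unadjusted p, a fold limit of 1, and leaving out each library.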

Additional observations from a re-analysis of the deposited data

How the results depend on the processing

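Counts of called members stayed within 1.5 times the reported ones under DESeq2, RLE and upper-quartile scaling, no filter and fits of only the compared groups. With a fold limit of 1, 4 members were lower in Sen(IR) against Prol, 2 were higher and 8 lower with UK5099 against Sen(IR), and 1 was higher and 7 lower with UK5099 against CTPI2. With an unadjusted p, 1 member was higher with CTPI2 in edgeR and 1 in DESeq2. Leaving out each library in turn gave 12 to 15 higher and 7 to 9 lower in Sen(IR) against Prol, 5 to 7 higher and 13 to 14 lower with UK5099 against Sen(IR), 5 to 6 and 13 to 14 with UK5099 against CTPI2, and 0 with CTPI2. Several members whose reported differences were small, far from the fold limit, turned sign without being called under either setting. ADAMTS4 in Sen(IR) against Prol was 0.023 with upper-quartile scaling and −0.47 to 0.25 when a library was left out. With CTPI2, the same range was −0.33 to 0.39 for ADAMTS4, −0.0092 to 0.044 for ADAMTS1 and −0.012 to 0.14 for ADAMTS5. ADAM9, ADAMTS1 and ADAMTSL4 were the highest of their subfamilies in 12 of 12 libraries with and without length scaling. The causes were not tested. Over all genes, calls with CTPI2 were 3 higher and 24 lower, and 123 and 173 at an unadjusted p. At these library sizes, members under 1 CPM, such as ADAM11, ADAM28 and ADAMTS4, rest on few reads.

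Same-numbered replicates of different groups did not deviate together: their correlations were −0.094 to 0.061 over 18 pairs. Over the 36 pairs with different numbers they were −0.098 to 0.186, with 2 over 0.1, which a block on the replicate number does not cover. The replicate block gave 13 higher and 8 lower in Sen(IR) against Prol, 6 and 13 with UK5099 against Sen(IR), 0 and 0 with CTPI2, and 6 and 13 with UK5099 against CTPI2, equal to the counts without it, and ADAMTS4 with CTPI2 was −0.0030.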

Other observations

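ADAMTSL3, a matrix protein without a protease domain, was below the filter and had no read in the 3 Prol libraries, 10, 1 and 9 counts in Sen(IR), 3, 0 and 1 with UK5099 and 2, 6 and 5 with CTPI2. ADAMTS17 had 0 to 7 counts and ADAM20 0 to 4 counts per library, with no order among the groups.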
